A study of Homo sapiens with 4 samples.

Results

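Keratins are the intermediate filament proteins of epithelial cells. A type I (acidic) and a type II (basic) chain pair to form each filament, so a cell needs at least 1 gene of each type. Single-layered (simple) epithelia, such as glands and columnar linings, are known for KRT8 and KRT18 with KRT7, KRT19 and KRT20, whereas the stratified squamous epithelium of the normal esophagus is known for KRT5 and KRT14 in its basal layer and KRT4 and KRT13 above it. Keratin genes were taken as all genes whose name on the array is KRT followed by a number and at most 1 letter. The rule found 56 genes, measured by 67 probes, among 33952 gene names and 47321 probes on the array.

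The cells were OE33, an established human esophageal adenocarcinoma line, transfected with a synthetic precursor of the microRNA miR-223 (miR-223 cells) or with a negative control precursor (control cells). Both precursors were used at 10 nM with the same transfection reagent, and cells were harvested after 24 h. There were 2 bead arrays in each group (Illumina HumanHT-12 v4), numbered 1 and 2 and described as biological replicates. All values come from 1 cell line, and the amount of miR-223 reached in the cells was not analysed here. A microRNA lowers the messages that pair with its seed, bases 2 to 8 of the mature strand. The labels do not say which arm the precursor delivers, so both mature strands are shown because they define the perturbation. The sequences are RefSeq's for GRCh38.p14, 5′ to 3′, with the seed in capitals, and the gene lies on the plus strand of chromosome X (chrX:66018937-66018958 for the 3p arm and chrX:66018895-66018916 for the 5p arm).
hsa-miR-223-3p: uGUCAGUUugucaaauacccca
hsa-miR-223-5p: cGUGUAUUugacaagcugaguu
Pairing sites in keratin transcripts were not analysed here.

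The median bead signal lay between 114.5 and 117.2 intensity units on the miR-223 arrays and between 115.3 and 118.4 on the control arrays, and the median number of beads behind a probe was 22 on each array. A probe was counted as detected on an array when its deposited detection p was under 0.05, that is, when few negative control probes were brighter. By this measure 18353 and 18599 probes were detected on the miR-223 arrays and 18036 and 18916 on the control arrays. The label of the cells was set against marker genes. All 7 epithelial markers (among them EPCAM and CDH1, the adhesion molecules of epithelial cells) were detected on at least 2 of the 4 arrays, against 0 of 7 fibroblast and 0 of 4 endothelial markers. Of 5 leukocyte markers, CD14, CD79A and LYZ were detected while the defining PTPRC and CD3E were not. The summed signal of those 5 was 734.4 and 858.0 on the miR-223 arrays and 679.5 and 781.5 on the control arrays, and its part in the results was not tested. Of 9 columnar and intestinal markers only CDX2 and MUC5AC were detected, and VIL1, CDH17, TFF1, TFF3, LGALS4, GATA6 and HNF4A were not. CDX2 was detected on all 4 arrays, and MUC5AC on only 1 array of each group. Of 13 squamous markers other than keratins, DSC3, SPRR1A, SPRR3 and TGM3 were detected, and TP63, the master regulator of squamous epithelium, was not.

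OE33 cells had a signal for most simple keratins and for a minority of the stratified ones. Of the 56 keratin genes, 14 were detected on at least 2 of the 4 arrays and 11 on all 4, so that 25% of keratin genes were detected, against 42.1% of all genes named on the array. Simple keratins were detected for 4 of 5 genes (KRT7, KRT8, KRT18 and KRT19). Basal keratins were detected for 2 of 3 genes (KRT14 and KRT15), suprabasal keratins for 2 of 11 (KRT10 and KRT13) and stress and activation keratins for 2 of 5 (KRT16 and KRT17), so 6 of 19 stratified keratins were detected in all. None of 9 keratins of the hair root sheath was detected, while 2 of 17 of the hair shaft (KRT34 and KRT86) and 2 of 6 others (KRT24 and KRT80) were. Both filament types were present, with 10 of 29 type I genes and 4 of 26 type II genes detected. The type II genes were KRT7, KRT8, KRT80 and KRT86, the last of them on 2 arrays only. A further KRT86 probe, under a former gene name, was not detected. At a detection p under 0.01 on at least 2 arrays, the number of detected keratin genes was 11. Probes bind with different efficiency, so the signals below describe each probe across arrays and are not a ranking of message amounts between genes.

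**Figure D1:**
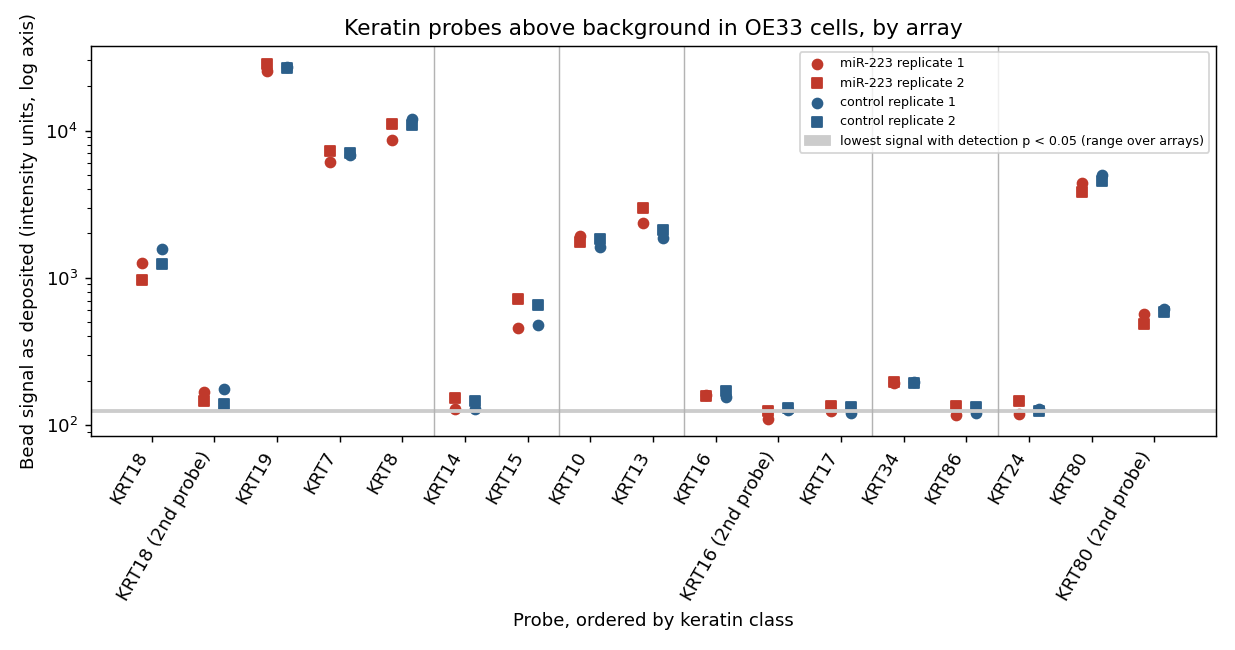
Deposited bead signal (intensity units, log axis) of the 17 keratin probes detected on at least 2 arrays, with each miR-223 array in red on the left and each control array in blue on the right of a probe. Circles are replicate 1, squares replicate 2, vertical lines part the keratin classes, and the grey band is the lowest detected signal on any of the arrays, between 122.5 and 126.2. KRT14, KRT17, KRT86, KRT24 and the second probe of KRT16 lie close to that band. The KRT13 symbols of miR-223 arrays lie above those of control arrays, and those of both KRT80 probes lie below.

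Among the simple keratins, KRT19, a type I keratin of ducts and columnar epithelia, had signals of 25495.0 and 28453.1 on the miR-223 arrays and 27107.9 and 26389.2 on the control arrays. The groups overlapped. KRT7, a type II keratin of glandular and ductal epithelia, had 6097.8 and 7307.2 in miR-223 cells and 6815.4 and 7004.0 in control cells, again with the control values inside the range of the miR-223 values. KRT8, the type II partner of KRT18, had 8646.3 and 11127.2 in miR-223 cells and 12007.2 and 10820.1 in control cells. Replicate 1 of the miR-223 cells was the lowest of the 4 arrays, and the groups overlapped. The standard error of the beads was 813.2 on miR-223 replicate 2 and 1199.4 and 725.2 on the control arrays, of the same order as the gaps between those 3 arrays. KRT18, the type I partner of KRT8, had 1260.9 and 968.2 in miR-223 cells and 1579.4 and 1231.5 in control cells on its brighter probe. Within each group the array numbered 1 was the higher one, and the groups overlapped. The second KRT18 probe was dim, at 166.8 and 146.2 in miR-223 cells and 176.5 and 138.5 in control cells. KRT20, the keratin of intestinal and gastric surface epithelium, was not detected on any array by either of its probes.

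Among the stratified keratins, KRT13, a type I keratin of the suprabasal layers of internal stratified epithelia such as the esophagus, was detected on all 4 arrays. Its signals were 2365.2 and 3000.5 in miR-223 cells and 1866.9 and 2122.7 in control cells, with bead standard errors of 97.9 and 176.5 on the miR-223 arrays and 62.3 and 79.7 on the control arrays. Both miR-223 arrays lay above both control arrays. KRT4, the type II keratin known to pair with KRT13, was not detected on any array. KRT10, a type I keratin known from the suprabasal epidermis, had 1923.2 and 1760.1 in miR-223 cells and 1614.4 and 1832.8 in control cells, while its epidermal partner KRT1 was not detected. KRT15, a type I keratin of basal layers and of progenitor cells, had 457.1 and 717.1 in miR-223 cells and 479.6 and 656.3 in control cells, so that in both groups the array numbered 2 was the higher one. KRT14, the basal type I keratin, was near background at 127.9 and 152.1 in miR-223 cells and 128.4 and 146.6 in control cells, also higher on the arrays numbered 2. Its basal partner KRT5 was not detected on any array.

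The probes named for keratins of activated and wounded epithelium were dim or not detected. A probe named for the pseudogene KRT17P3, described further below, was brighter, and which messages it binds was not tested. KRT16 had 159.3 and 157.6 in miR-223 cells and 154.9 and 169.1 in control cells on its brighter probe. Its second probe was detected on neither miR-223 array (110.6 and 123.6) and on both control arrays (126.8 and 131.2). All of these signals lay close to the detection limit. With the lowest detected value standing in for the undetected one, the normalized, background-corrected level was 1.09-fold lower in miR-223 cells. The limma confidence interval of the fitted log2 difference of this probe ran from -0.88 to 0.17. The 1.09-fold value is therefore not a minimum decrease. KRT17 was detected on 3 arrays, with 124.6 and 133.9 in miR-223 cells and 120.2 and 131.5 in control cells, of which the 120.2 was not above background. The type II partners KRT6A, KRT6B and KRT6C were not detected, on 5 probes in all. KRT6A, KRT6B and KRT6C are close copies of each other, as are KRT16 and KRT17 and their pseudogenes, so a probe of one may also bind another.

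Outside these classes, KRT80, a type II keratin whose expression is known from many epithelia, was detected by both of its probes. The brighter one had 4377.5 and 3840.6 in miR-223 cells and 4965.3 and 4529.1 in control cells, and the other had 566.4 and 482.7 in miR-223 cells and 616.3 and 584.8 in control cells. On both probes miR-223 replicate 2 was the lowest array and control replicate 1 the highest. The deposited signals of both miR-223 arrays lay below those of both control arrays on each probe, but the normalized values of the groups overlapped. KRT34, a type I keratin of the hair shaft, had 193.6 and 196.3 in miR-223 cells and 197.3 and 193.8 in control cells. KRT34 is a close relative of KRT33A, KRT33B and KRT31, none of which reached 2 arrays. KRT86, a type II keratin of the hair shaft, was detected on both arrays numbered 2 (134.0 in miR-223 and 132.0 in control cells) and on neither numbered 1 (116.4 in miR-223 and 120.2 in control cells). Another KRT86 probe, outside the rule because it carries the former name KRTHB6, was detected on no array. It had 89.7 and 112.5 in miR-223 cells and 111.6 and 108.8 in control cells. KRT24, a type I keratin, was detected on 1 array of each group, at 144.7 in miR-223 and 128.8 in control cells, with 117.9 in the other miR-223 and 123.9 in the other control array.

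The other 42 keratin genes had no detected probe on 2 arrays, and the signals of their 50 probes lay between 87.9 and 125.5. The nearest to the limit were KRT25 and KRT78 (lowest detection p 0.0468 for each, on miR-223 replicate 1), KRT33B (0.0494, on miR-223 replicate 2) and KRT27 (0.0584, on miR-223 replicate 1). KRT25, KRT78 and KRT33B thus each passed on a single array. Of all probes on the array, 9.47% passed on exactly 1 array and 3.92% on exactly 2, against 3 and 3 of the 67 keratin probes.

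The places of the detected keratins within the keratin gene clusters were read from the gene order. On chromosome 12, which holds the type II genes and KRT18, the detected genes stood at the edges: KRT80 and KRT7 are neighbours at one end, KRT8 and KRT18 at the other. Between KRT7 and KRT8 lie 24 keratin genes on the array, and 1 of them, KRT86, was detected, on 2 arrays only. On chromosome 17, which holds the other type I genes, KRT13, KRT15 and KRT19 are neighbours and were detected on all 4 arrays, and after KRT9, which was not detected, KRT14, KRT16 and KRT17 follow. Earlier in the order, KRT10 and KRT34 were also detected on all 4 arrays and KRT24 on 2. Each of them stood between genes that did not reach 2 arrays. In all, 5 of 28 keratin genes on chromosome 12 and 9 of 28 on chromosome 17 were detected on at least 2 arrays. The annotation was RefSeq's for GRCh38.p14.

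**Figure D2:**
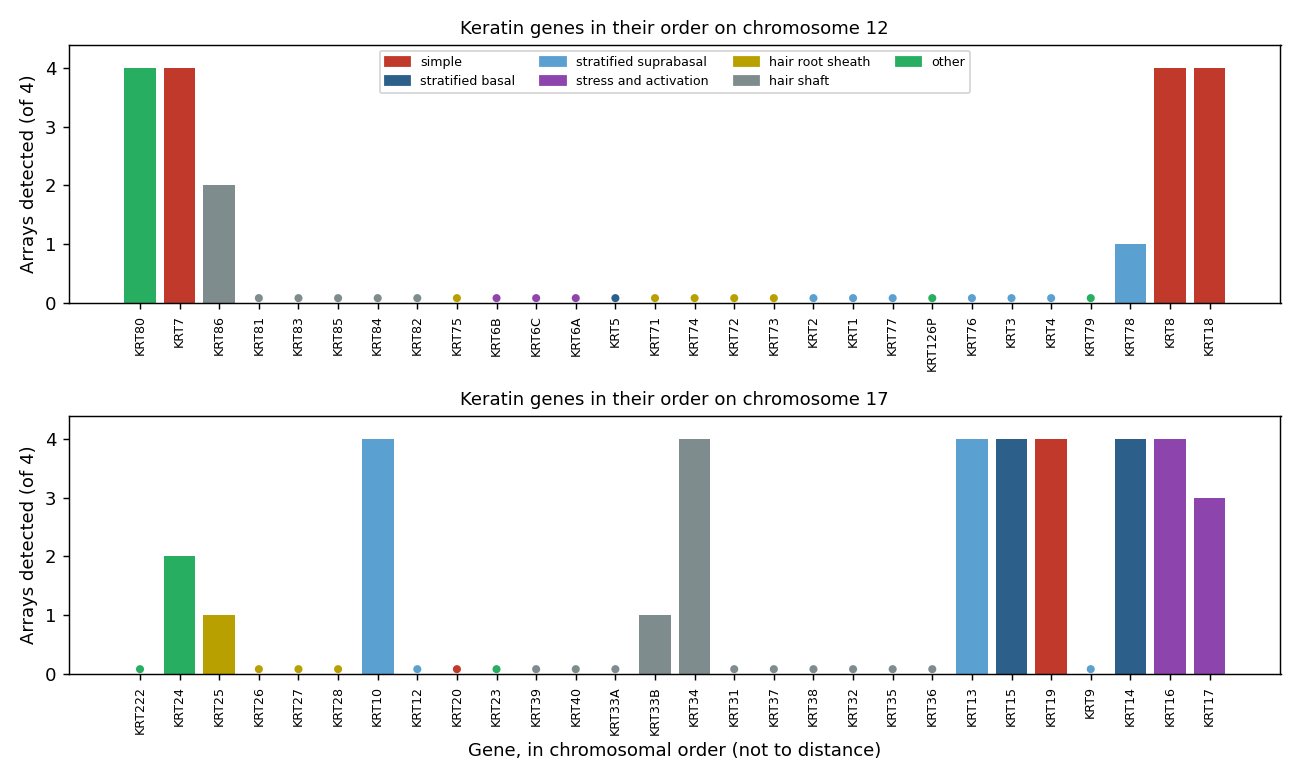
Number of arrays (of 4) on which a keratin gene was detected by its best probe, with genes in their order on chromosome 12 (above) and chromosome 17 (below) and bars coloured by keratin class. Dots mark genes detected on 0 arrays. The detected genes of chromosome 12 stand at both ends, and KRT13, KRT15 and KRT19 form a run near the end of the chromosome 17 row. KRT24, KRT10 and KRT34 stand earlier in that row.

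Promoter windows from RefSeq (GRCh38.p14) matched 34 of the 56 keratin genes, among them 4 of the 14 detected ones. The sequence TATAAA, the core of a TATA box, was searched on both strands of the 60 bases before the start of transcription. It was present in 17 of 38 keratin windows (44.7%) and in 3.75% of the 35116 windows of all genes. The shorter ATAAA, which TATAAA contains, was present in 73.7% of keratin windows and 10.5% of all windows. Among detected keratins 3 of 4 windows held TATAAA, and among undetected keratins 14 of 34. The windows below are shown to set detected genes beside undetected ones. Each is given 5′ to 3′ on the minus strand, which is the strand of the gene, with TATAAA in capitals, or ATAAA where TATAAA is lacking.
KRT10, detected, chr17:40822615-40822674: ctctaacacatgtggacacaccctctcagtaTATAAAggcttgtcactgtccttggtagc
KRT34, detected, chr17:41382307-41382366: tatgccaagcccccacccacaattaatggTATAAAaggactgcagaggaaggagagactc
KRT8, detected, chr12:52926470-52926529: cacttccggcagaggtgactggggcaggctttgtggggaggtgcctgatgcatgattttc
KRT20, not detected, chr17:40885243-40885302: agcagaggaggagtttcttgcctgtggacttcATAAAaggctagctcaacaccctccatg
KRT5, not detected, chr12:52520395-52520454: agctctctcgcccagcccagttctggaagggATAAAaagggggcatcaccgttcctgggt
The letters were present before both detected and undetected genes, and neither form was in the KRT8 window. The window of KRT4, which was not detected, is not shown and also held neither form. A match describes the sequence and not a site in use.

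The comparison of miR-223 with control cells asked whether any keratin message differs when miR-223 is raised. No keratin passed the test, and KRT13 and KRT18 had the largest positive and negative differences among the 14 detected genes. The log2 values of control arrays were taken from those of miR-223 arrays, after background correction and quantile normalization, and the differences were tested with limma over 18629 probes. Of the 17 keratin probes tested, 0 had an adjusted p under 0.05 in limma, against 0% of all probes. At an unadjusted limma p under 0.05 there were 0 keratin probes, against 5.46% of all probes. In a fit that added the replicate number and a variance trend, 0 keratin probes passed, against 1.01% of all probes. The lowest adjusted p of a keratin in limma was 0.937. For 3 of 17 keratin probes the normalized values of the groups did not overlap (KRT13 higher, KRT8 and the second probe of KRT16 lower), or 17.6%, against 33.2% of all probes. The KRT16 probe among them had passed the filter only through the control arrays. In 1 direction the shares of all probes were 16.4% higher and 16.8% lower. By this measure keratin probes separated the groups no more often than probes in general.

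**Figure D3:**
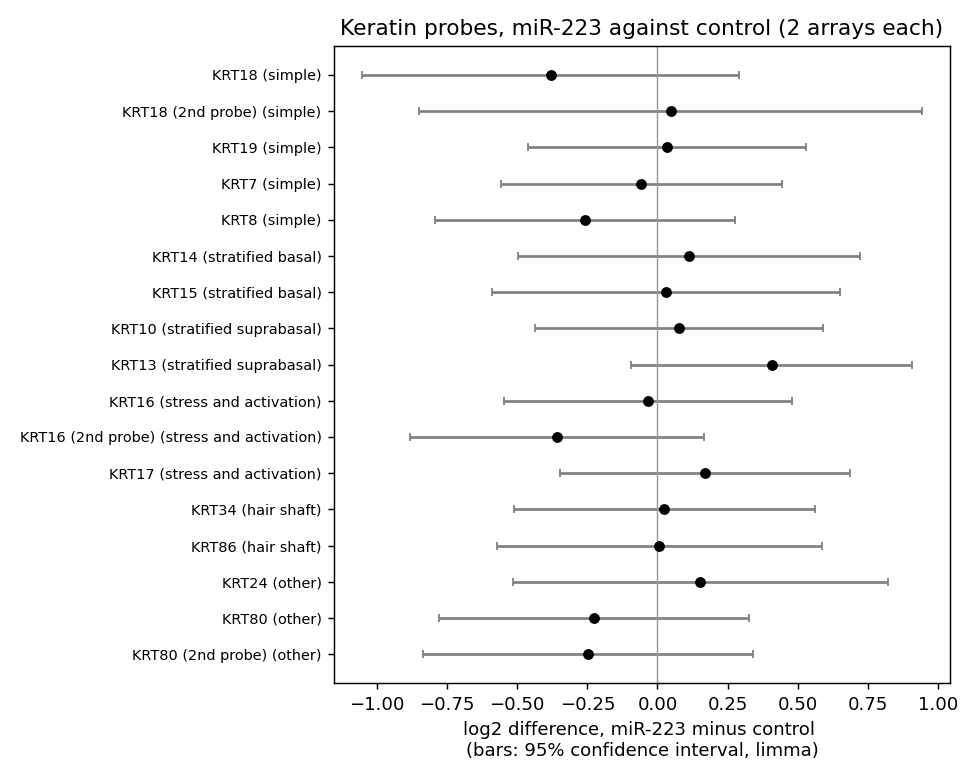
Log2 difference (miR-223 minus control, normalized values) of the 17 tested keratin probes, with dots for the difference and bars for its 95% confidence interval from limma. All intervals include 0; the KRT13 dot stands at 0.41 and the brighter KRT18 probe at -0.38.

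KRT13 averaged 11.31 ± 0.13 in miR-223 cells and 10.91 ± 0.0054 in control cells (log2 intensity, SD, n = 2 each). Its difference was 0.41 ± 0.22 (SE) with a 95% interval from -0.094 to 0.91, at a limma adjusted p of 0.937. With a single array left out at a time it lay between 0.31 and 0.51. A total of 93.4% of the genes tested had a lower difference. In the authors' deposited table, which averages a gene's probes, the log2 fold change of KRT13 was 0.39.

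The KRT8 and KRT18 pair had negative differences. KRT8 averaged 13.22 ± 0.12 in miR-223 cells and 13.48 ± 0.24 in control cells (log2 intensity, SD, n = 2 each). Its difference was -0.26 ± 0.23 (SE; 95% interval from -0.79 to 0.28), at a limma adjusted p of 0.999. The normalized KRT8 values of the arrays numbered 2 differed by only -0.0050, so its separation of the groups rests on a narrow gap, and the deposited signals overlapped. With a single array left out it lay between -0.43 (without control replicate 2) and -0.095 (without control replicate 1), and it was -0.17 without miR-223 replicate 1. KRT18 averaged 9.98 ± 0.39 in miR-223 cells and 10.36 ± 0.42 in control cells on its brighter probe (log2 intensity, SD, n = 2 each). Its difference was -0.38 ± 0.29 (SE; 95% interval from -1.05 to 0.29), at a limma adjusted p of 0.999, and the dim probe stood at 0.047 ± 0.39 (SE). The brighter probe stood at -0.65 when miR-223 replicate 1 was left out, -0.11 when miR-223 replicate 2 was, -0.080 when control replicate 1 was and -0.68 when control replicate 2 was, so its size depended on every array. In the authors' deposited table the log2 fold changes were -0.26 for KRT8 and -0.31 for KRT18.

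For KRT7 and KRT19 the differences were near 0. KRT7 stood at -0.057 ± 0.22 (SE; 95% interval from -0.56 to 0.44) and KRT19 at 0.034 ± 0.22 (SE; 95% interval from -0.46 to 0.53). These intervals leave room for a difference of about the size seen for KRT13. KRT80 stood at -0.22 ± 0.24 (SE; 95% interval from -0.78 to 0.33) on its brighter probe and at -0.25 ± 0.26 (SE) on the other, so both probes gave a like difference. With a single array left out its brighter probe stood at -0.38 when either miR-223 replicate 1 or control replicate 2 was dropped, at -0.062 when miR-223 replicate 2 was and at -0.074 when control replicate 1 was.

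The other detected keratins stood between -0.034 (KRT16, brighter probe) and 0.17 (KRT17). KRT10 was at 0.077 ± 0.22 (SE), KRT15 at 0.029 ± 0.27 (SE) and KRT14 at 0.11 ± 0.27 (SE). KRT34 was at 0.025 ± 0.23 (SE), KRT24 at 0.15 ± 0.29 (SE) and KRT86 at 0.0065 ± 0.25 (SE). For KRT10, KRT14, KRT15, KRT16, KRT24, KRT34 and KRT86 the sign turned when 1 array was left out. The second probe of KRT16, dim and undetected on the miR-223 arrays, had a fitted difference of -0.36 ± 0.23 (SE), or -0.13 without background correction. For the other dim probes the differences without background correction were 0.056 for KRT17, 0.050 for KRT24, 0.040 for KRT14 and 0.011 for KRT34.

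By class, the 4 detected simple keratins had a median log2 difference of -0.16, with 1 positive and 3 negative. The 6 detected stratified keratins had a median of 0.095, with 5 positive and 1 negative. Over all 14 detected keratin genes the median was 0.027, with 9 positive and 5 negative, and over the 14285 genes tested it was 8.6e-05, with 7146 positive and 7139 negative. The 25% and 75% points of all genes tested were -0.17 and 0.17, and 9 of the 14 keratins fell between them. The simple median was -0.033 without control replicate 1, and the stratified median was 0.0028 without control replicate 1, 0.23 without control replicate 2 and 0.29 without miR-223 replicate 1. The stratified median was also smaller without background correction, at 0.048, and with no filter on dim probes, at 0.00079.

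**Figure D4:**
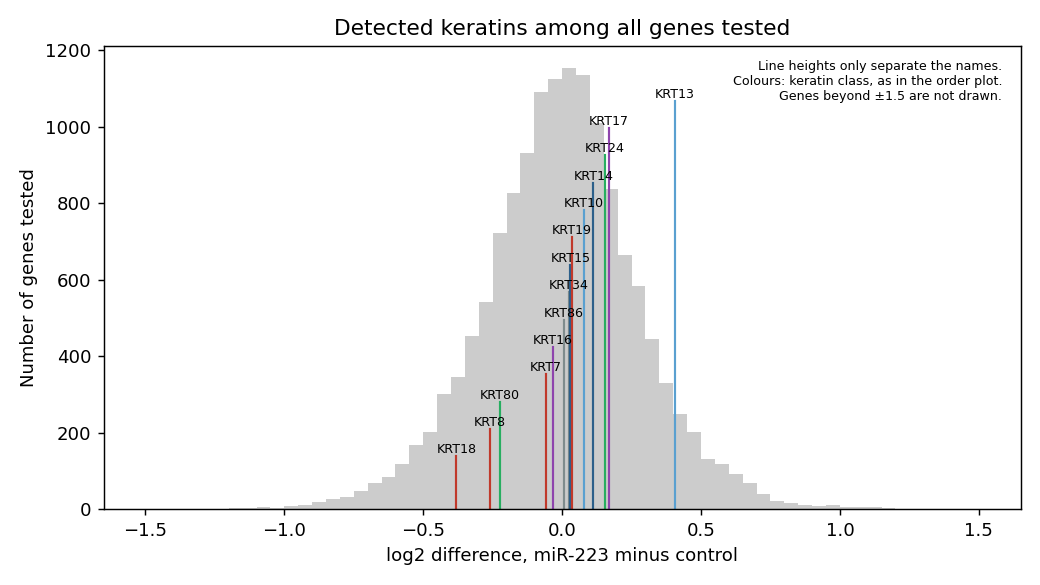
Number of genes by log2 difference (miR-223 minus control) over all genes tested, in grey, with a line at the difference of each detected keratin gene, coloured by class. Line heights only keep the names apart. KRT13 stands right of the main body of keratins at 0.41, and KRT18, KRT8 and KRT80 stand left of it between -0.38 and -0.22.

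Probes named for pseudogenes of keratins lie outside the rule but may bind the parent messages, whose sequences are close to theirs. Of 21 such probes, 6 were detected on at least 2 arrays, and all differences are uncertain for this reason. The KRT8P9 probe had 1765.9 and 1663.8 in miR-223 cells and 2214.2 and 1808.9 in control cells, a log2 difference of -0.27 ± 0.26 (SE), beside -0.26 for KRT8. The brighter KRT18P13 probe stood at -0.16 ± 0.25 (SE), KRT18P17 at -0.19 ± 0.30 (SE) and KRT18P28 at -0.0081 ± 0.27 (SE), beside -0.38 for the brighter KRT18 probe. The dimmer KRT18P13 probe stood at 0.0060 ± 0.40 (SE). The KRT17P3 probe was well above background, at 1114.4 and 1147.7 in miR-223 cells and 963.9 and 988.2 in control cells, with both miR-223 arrays above both control arrays and a log2 difference of 0.23 ± 0.22 (SE), beside 0.17 for KRT17. None had an unadjusted limma p under 0.05.

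Keratin filaments are held at desmosomes and hemidesmosomes by linker proteins. The list of keratin partners was wider than these linkers and also held KRTCAP2, KRTCAP3, TCHP, FBF1, FLG and PNN. Of its 21 genes, 17 were tested. In limma, 0 passed after adjustment, and at an unadjusted p under 0.05 there were 1 higher and 2 lower, against 5.46% of all probes. The list median was -0.069, which is the value of KRTCAP2, with 7 positive and 10 negative. These counts describe the whole list and not the linkers alone. PLEC, which encodes plectin, the linker between keratin and the hemidesmosome, had 325.0 and 225.5 in miR-223 cells and 499.5 and 400.5 in control cells. Its difference was -0.99 ± 0.37 (SE), or -0.71 without background correction, from 1 detected probe of 8. ITGB4, the hemidesmosomal integrin that binds plectin, had 508.3 and 593.9 in miR-223 cells and 715.3 and 934.1 in control cells. It stood at -0.68 ± 0.22 (SE), with a second probe at -0.70. ITGA6, the integrin chain that pairs with ITGB4, had 557.5 and 533.3 in miR-223 cells and 357.0 and 459.6 in control cells, a difference of 0.54 ± 0.23 (SE), with a second, dimmer probe at 0.58, or 0.24 without background correction. For PLEC and ITGB4 both miR-223 arrays were below both control arrays, and for ITGA6 both were above. The limma adjusted p was 0.909 for all 3. The probes of JUP, which encodes the desmosomal linker plakoglobin, disagreed. Its brightest probe, which stands for the gene in the counts, was at -0.089 ± 0.23 (SE), with overlapping groups. The other detected probes, chosen after their values were seen, were at -0.76 ± 0.26 (SE) and -0.66 ± 0.26 (SE), with both miR-223 arrays below both control arrays. The desmosomal plakophilin PKP2 stood at -0.50 ± 0.26 (SE), PKP3 at 0.16 ± 0.24 (SE) and PNN at 0.23 ± 0.23 (SE).

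Of 16 other intermediate filament genes 5 were tested and 0 passed in limma, with 0 at an unadjusted p under 0.05 (5.46% of all probes) and a median difference of -0.11 (1 positive, 4 negative). VIM, the vimentin gene of mesenchymal cells, had 178.7 and 157.9 in miR-223 cells and 199.5 and 205.5 in control cells. Its difference was -0.51 ± 0.27 (SE), which shrank to -0.25 without background correction. Its other probe was not detected. The nuclear lamin genes stood at 0.27 ± 0.24 (SE) for LMNA, -0.22 ± 0.28 (SE) for LMNB1 and -0.11 ± 0.21 (SE) for LMNB2. Of 26 regulators, chaperones and modifiers of keratins, 24 were tested, TP63 and TRIM29 were not detected, and 0 passed in limma, with 0 at an unadjusted p under 0.05 (5.46% of all probes) and a median of -0.016 (11 positive, 13 negative). The epithelial transcription factor GRHL3 had 703.6 and 651.7 in miR-223 cells and 541.6 and 427.0 in control cells, a difference of 0.60 ± 0.28 (SE) with a second probe at 0.51. These were 0.50 and 0.32 without background correction. Another, dim probe passed the filter only through the miR-223 arrays, so it adds nothing to these differences. PRKCE, a protein kinase C gene, had a difference of 0.42 ± 0.23 (SE), which was 0.16 on values not background corrected. The epithelial factor KLF5 stood at 0.37 ± 0.22 (SE). SFN, which encodes a 14-3-3 protein, of a family known to bind phosphorylated keratins, stood at -0.33 ± 0.22 (SE). GRHL2 stood at -0.47 ± 0.32 (SE), or -0.19 without background correction, and EHF at -0.21 ± 0.22 (SE).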

How the data were processed

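The deposited bead table gives, per the file headers, a mean signal for each probe on each array (a linear intensity), its bead standard error, a count of beads and a detection p-value. A second deposited table holds quantile-normalized intensity values, and another holds log2 values per gene with the authors' log2 fold change and a linear fold. Per the submitters' processing notes, the software was GenomeStudio, BeadStudio and Partek, with no step assigned to any of them. Signals were background corrected by normexp with negative controls inferred from the detection p-values (offset 16), quantile normalized and taken to log2 (limma 3.58.1, R 4.3.3). Differences of the dim probes named here were mostly larger than without background correction. The 18629 probes whose detection p was below 0.05 for 2 or more arrays were tested two-sided with lmFit and eBayes on a model of group alone, and adjusted by Benjamini-Hochberg. The method was tested on simulated data. The brightest probe stands for a gene. All 67 keratin probes carried a current RefSeq symbol. Every detected keratin was named, and of each partner, filament and regulator list the 3 with the smallest p in each direction. JUP falls outside that rule and was added after its values were seen. Besides the 5 leukocyte markers counted, a further one is not reported here. Members and lists were chosen with earlier results of these data known. With 2 arrays against 2, 33.3% of orders separate the groups, so no exact test was used, and the number of arrays limits the precision. Alternatives were other background, normalization, filter and variance settings, a replicate block, and leaving out each array.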

Additional observations from a re-analysis of the deposited data

How the results depend on the processing

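Under every planned normalization, filter, variance model and threshold, and with each array left out, limma called 0 keratin probes. Over all probes the count was 0 except with the replicate block together with a variance trend and the robust option, where 188 probes passed, none of them a keratin probe; the cause was not tested. There the lowest adjusted p of a keratin was 0.223 (KRT13). The replicate block alone called 0 probes. Nothing in the labels ties equal numbers to 1 experiment, and deviations of same-numbered arrays correlated at 0.352 across tested probes and 0.691 across keratin probes. Of 150 values of single keratins under settings that kept all arrays, 147 kept their sign. KRT86 turned to -0.00044 without background correction and -0.00051 on the deposited quantile-normalized values, and KRT19 to -0.010 after cyclic loess. With 1 array left out, 12 of 52 values turned sign, with ranges of -0.023 to 0.085 for KRT19, -0.13 to 0.014 for KRT7, -0.053 to 0.21 for KRT10, -0.27 to 0.33 for KRT15, -0.14 to 0.19 for KRT34, -0.16 to 0.097 for KRT16, -0.14 to 0.38 for KRT14, -0.0083 to 0.53 for KRT24 and -0.12 to 0.25 for KRT86. The simple median then ranged from -0.28 to -0.033 and the stratified median from 0.0028 to 0.29. Detected keratin genes numbered 12 to 14 with 1 array left out, 11 on all 4 arrays and 17 on any array.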
